A study of Mus musculus with 2 samples.

Results

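Genes that were abundant in the muscle wall of *Dnmt1*-WT jejunum and at most 0.5 times as abundant without DNMT1 were chosen by their values in the 2 mRNA-seq libraries, 1 for each genotype. The rule took every gene with a *Dnmt1*-WT level of 30 FPKM or more and a *Dnmt1*-KO level at or below 0.5 times that value, where FPKM is the number of fragments per kilobase of transcript, scaled to the mapped fragments of the library. Of 18159 listed genes, 2477 reached 30 FPKM in the *Dnmt1*-WT library and 98 of these, or 3.96%, met the second condition. The contractile and muscle genes *Myh11*, *Mylk*, *Smtn*, *Synm*, *Lmod1*, *Tpm2* and *Ckm*, and 3 small RNA symbols, were left out, so that 88 member genes remained. Both values used by the rule are those described below, so the losses themselves are a description of how the genes were chosen.

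RNA came from the tunica muscularis of the jejunum, the smooth muscle layers peeled from the mucosa, of C57BL/6 mice at 15 days of age, with 1 library for each genotype and mice of both sexes behind each. Mice of the *Dnmt1*-KO group carried smMHCCre-eGFP/+ together with floxed alleles, *Dnmt1*lox/lox, and those that the study calls *Dnmt1*-WT carried smMHCCre-eGFP/+, so Cre and eGFP were present in both groups. The GEO labels give the same strain and the same knockout description for both samples, and the *Dnmt1*-WT sample was taken from its title and genotype label. Cre is driven by the *Myh11* promoter and deletes *Dnmt1* in smooth muscle cells (SMC), and the tissue also holds nerves, glia, vessels, fibroblasts and immune cells. *Dnmt1* was listed at 11.58 FPKM in *Dnmt1*-WT and 7.58 FPKM in *Dnmt1*-KO. With 1 library for each genotype no difference could be compared with the spread between replicates, and no p-value is given.

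SMC of the gut contract when calcium and calmodulin activate myosin light chain kinase, and relax when a myosin phosphatase removes the phosphate again. Potassium channels set and restore the membrane potential on which calcium entry depends, electrical signals pass from cell to cell through gap junctions, and receptors for acetylcholine and other transmitters act through G proteins. DNMT1 copies CpG methylation onto the new strand when DNA is replicated.

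Added together, the 88 members had 11196 FPKM in *Dnmt1*-WT and 4697 FPKM in *Dnmt1*-KO. Of these sums, 2166.37 and 1038.82 FPKM came from 1 gene, the ribosomal RNA precursor *Rn45s*. The members had a median ratio of *Dnmt1*-KO to *Dnmt1*-WT of 0.423, a median loss of 57.7%. For all 2477 genes at 30 FPKM or more in *Dnmt1*-WT the median ratio was 0.972. Ratios were above 0.45 for 36 members, above 0.4 for 52 and at or below 0.25 for 9. *Hbb-b1*, a beta-globin gene, was the 1 member listed at 0 in *Dnmt1*-KO. In the *Dnmt1*-KO library 27 members were still at 30 FPKM or more, 54 lay between 10 and 30 FPKM and 7 were below 10 FPKM. Members just inside the limit were *Ipo13* (45.47 and 22.68 FPKM) at 0.499, *Cnst* at 0.495, *Malat1* at 0.493 and *Sort1* (36.09 and 17.79 FPKM) at 0.493, and the nearest genes outside it were *Maf1* at 0.502, *Lpp* at 0.503, *Arrb1* at 0.504 and *Zfp651* at 0.504.

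**Figure D1:**
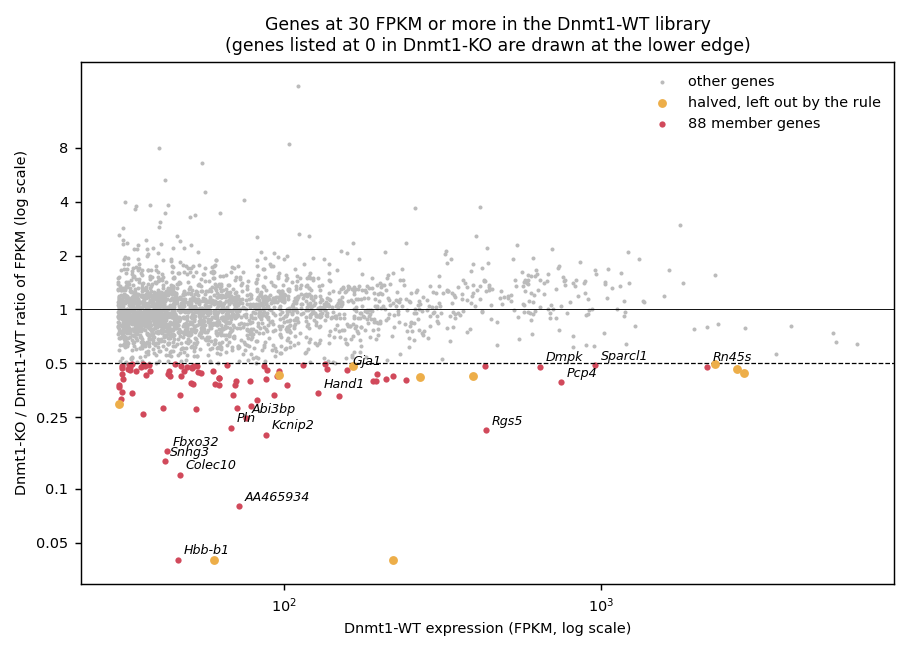
Each point is 1 gene at 30 FPKM or more in the *Dnmt1*-WT library, with its *Dnmt1*-WT level on the x axis (FPKM, log scale) and its ratio of *Dnmt1*-KO to *Dnmt1*-WT on the y axis (log scale, dashed line at 0.5). The 88 members lie on or below the dashed line, 36 of them at a ratio above 0.45 and *Hbb-b1*, listed at 0 in *Dnmt1*-KO, drawn at the lower edge, with *AA465934*, *Colec10*, *Snhg3*, *Fbxo32*, *Kcnip2*, *Rgs5* and *Pln* well apart.

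The share of genes at most halved ranged from 3.12% to 5.1% over levels. It was 3.47% of the 1096 genes between 30 and 50 FPKM in *Dnmt1*-WT, 4.63% of 735 between 50 and 100 FPKM, 3.12% of 352 between 100 and 200 FPKM and 5.1% of 294 above that, in each case with the genes left out by the rule included. The same rule with the libraries exchanged, a *Dnmt1*-KO level of 30 FPKM or more and a *Dnmt1*-WT level at most 0.5 times as high, was met by 174 of 2471 genes, or 7.04%. Abundant genes at least doubled in *Dnmt1*-KO were more numerous than abundant genes at most halved.

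The most abundant protein-coding member was *Sparcl1*, which encodes a secreted glycoprotein related to SPARC, with 959.88 FPKM in *Dnmt1*-WT and 469.88 FPKM in *Dnmt1*-KO. *Sparc* itself went the other way, from 966.14 to 1519.57 FPKM, so these related genes were nearly equal in *Dnmt1*-WT and apart in *Dnmt1*-KO. Of the 7 genes of the SPARC family list other than *Sparcl1*, 4 were lower and 3, *Sparc* among them, were higher in *Dnmt1*-KO. Next came *Pcp4*, a small calmodulin-binding protein, with 747.71 and 293.59 FPKM, and *Dmpk*, the kinase whose gene carries the repeat expansion of myotonic dystrophy, with 644.59 and 309 FPKM. *Rgs5*, a brake on G protein signalling, had 434.65 and 91.95 FPKM, a level 4.73-fold lower in *Dnmt1*-KO and the lowest ratio among the 19 members at 100 FPKM or more. *Pdlim3*, an actin-associated PDZ-LIM protein of muscle, followed with 430.7 and 207.44 FPKM.

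Genes of protein phosphatase 1 included both core subunits of myosin phosphatase. The targeting subunit *Ppp1r12a*, on chromosome 10 of GRCm38 from 108162193 to 108284475 on the plus strand, was listed at 242.83 FPKM in *Dnmt1*-WT and 98.36 FPKM in *Dnmt1*-KO. The catalytic subunit *Ppp1cb*, on chromosome 5 from 32458843 to 32517433 on the plus strand, was listed at 191.25 and 76.14 FPKM, and the ratios of the pair were 0.405 and 0.398. The other catalytic subunits did not share this loss, with *Ppp1ca* at 109.06 and 109.07 FPKM and *Ppp1cc* at 78.88 and 71.94 FPKM. *Ppp1r12b*, the second targeting subunit of muscle, lay just outside the limit with 144.98 and 73.16 FPKM. *Ppp1r1a*, which encodes an inhibitor of protein phosphatase 1, was a member at 36.43 and 17.6 FPKM. Where a list is counted in the text, its members are left out, because the rule fixed their loss. Of the 13 other genes of myosin phosphatase and its regulators, 0 were at most halved, 9 were lower, 0 were doubled and the median log2 ratio with 0.1 FPKM added was -0.04. Among all 13865 genes at 1 FPKM or more in at least 1 library, the filter used for every list below, 3.79% were at most halved, 9.62% at least doubled and 50.6% lower, with a median log2 ratio of -0.01.

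Calcium handling was represented by a pump inhibitor, a pump, an exchanger, *Pcp4* and a mitochondrial carrier. *Pln*, phospholamban, the inhibitor of the calcium pump of the sarcoplasmic reticulum, had 68.13 FPKM in *Dnmt1*-WT and 14.91 FPKM in *Dnmt1*-KO, a level 4.57-fold lower, and the number of its transcript variants went from 2 to 1. *Atp2b4*, the plasma membrane calcium pump PMCA4, had 197.55 and 85.77 FPKM. *Slc24a3*, a potassium-dependent sodium-calcium exchanger, had 114.94 and 56.26 FPKM, and *Slc25a23*, a calcium-sensitive carrier of the inner mitochondrial membrane, 96.63 and 43.6 FPKM. Of the 13 other calcium export and store genes, 2 were at most halved, namely *Slc8a3* (5.28 and 2.02 FPKM) and *Ryr3* (4.49 and 1.96 FPKM), 9 were lower and 0 doubled. The pump that phospholamban inhibits, *Atp2a2*, was listed at 249.23 and 154.54 FPKM, a ratio of 0.620 beside 0.219 for *Pln*.

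Members among ion channels were mostly potassium channel subunits. *Kcnip2*, a calcium-binding subunit of fast-inactivating potassium channels, had 88.18 FPKM in *Dnmt1*-WT and 17.66 FPKM in *Dnmt1*-KO, a level 4.99-fold lower. The pore-forming partners examined here, *Kcnd3* at 15.86 and 13.04 FPKM and *Kcnd2* at 2.01 and 1.51 FPKM, were low and not halved. *Abcc9*, which encodes the sulphonylurea receptor SUR2 of ATP-sensitive channels, had 94.99 and 40.26 FPKM, while its pore subunit *Kcnj8* had 104.66 and 78.31 FPKM. *Kcnh2*, the ERG channel, had 43.31 and 18.9 FPKM, and *Kcnn3*, the small-conductance calcium-activated channel SK3, 32.46 and 15.93 FPKM. Of the 15 other potassium channel genes in the list of smooth muscle, 4 were at most halved, 12 were lower and *Kcnmb4* (4.3 and 8.68 FPKM) at least doubled. Their median log2 ratio was -0.64. The 4 at most halved were low in both libraries, namely *Kcna2* (8.07 and 3.78 FPKM), *Abcc8* (3.18 and 1.42 FPKM), *Kcnmb2* (2.88 and 1.25 FPKM) and *Kcnn2* (2 and 0.91 FPKM). The list of 9 voltage-gated calcium channel genes held no member, with 6 lower, 3 higher and a median log2 ratio of -0.61. Of these 9, *Cacnb2* alone was at most halved, at 26.7 and 12.9 FPKM, below the floor of 30 FPKM.

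Gap junction genes were divided by type. *Gja1*, connexin 43, had 158.4 FPKM in *Dnmt1*-WT and 72.34 FPKM in *Dnmt1*-KO, and *Gjc1*, connexin 45, had 36.27 and 17.87 FPKM. *Cnst*, consortin, which takes part in the delivery of connexins to the cell surface, was a member with 33.18 and 16.43 FPKM. *Gjc1*, *Cnst* and *Kcnn3* lie so near the limit that they passed it when *Dnmt1*-KO was scaled by the median, the upper quartile or a trimmed mean. The 7 other connexins in the list were at 7.48 FPKM or less in *Dnmt1*-WT, and 4 of them at least doubled in *Dnmt1*-KO. Among these, *Gja4* (2.22 and 10.77 FPKM) and *Gja5* (0.62 and 6.63 FPKM) are connexins of blood vessels. The others were *Gjb1* (0.26 and 3.18 FPKM) and *Gjb5* (3.26 and 6.71 FPKM). Endothelial markers were higher in the same library, 8 of 9 at least doubled, and their part in these values was not tested.

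Signalling members acted mainly on G proteins. *Rgs1* had 70.5 FPKM in *Dnmt1*-WT and 26.64 FPKM in *Dnmt1*-KO, and *Rgs2* had 32.68 and 15.65 FPKM, which with *Rgs5* made 3 members of the RGS family, all on chromosome 1. Of the 13 other RGS genes at 1 FPKM or more 0 were at most halved, 8 were lower and 5 were higher in *Dnmt1*-KO, *Rgs4* among them with 31.92 and 42.55 FPKM. *Chrm2*, the muscarinic acetylcholine receptor M2 and the most abundant receptor of the motility list, had 86.66 and 41.74 FPKM, while *Chrm3* was low in both libraries with 3.16 and 2.05 FPKM. Of the 18 other receptors in that list 3 were at most halved, 9 lower, 9 higher and 1 at least doubled, with a median log2 ratio of -0.09. The widest differences were those of *Tacr2*, the neurokinin receptor NK2, at 15.36 and 0.53 FPKM, and *P2rx1*, an ATP-gated channel, at 0.25 and 3.54 FPKM. *Gpr20*, an orphan receptor, had 48.52 and 21.88 FPKM, *Gpsm2*, which binds G protein alpha subunits, 37.8 and 17.14 FPKM, and *Dgkb*, a diacylglycerol kinase, 33.38 and 11.37 FPKM. *Kctd12*, an auxiliary subunit of GABA-B receptors, had 88.75 and 40.95 FPKM.

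Relaxation by nitric oxide depends on soluble guanylate cyclase, which makes cGMP, and on phosphodiesterases, which remove it. The beta subunit of the cyclase, *Gucy1b3*, had 59.91 FPKM in *Dnmt1*-WT and 27.02 FPKM in *Dnmt1*-KO, and its partner *Gucy1a3*, no member, 52.85 and 34.08 FPKM. The phosphodiesterase *Pde5a* had 55.04 and 24.3 FPKM, so these genes for making and for removing cGMP were lower. Among prostaglandin enzymes, *Ptgs1*, cyclooxygenase 1, was a member at 62.55 and 23.81 FPKM, as was *Hpgd*, which inactivates prostaglandins, at 51.1 and 19.94 FPKM. *Ptgs2*, cyclooxygenase 2, was listed at 4.31 and 4.77 FPKM, and *Ptgis*, prostacyclin synthase, was higher in *Dnmt1*-KO, at 42.6 and 60.82 FPKM. *Bche*, butyrylcholinesterase, was a member at 35.55 and 16.94 FPKM, whereas acetylcholinesterase, *Ache*, was higher in *Dnmt1*-KO, at 39.24 and 55.82 FPKM.

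**Figure D2:**
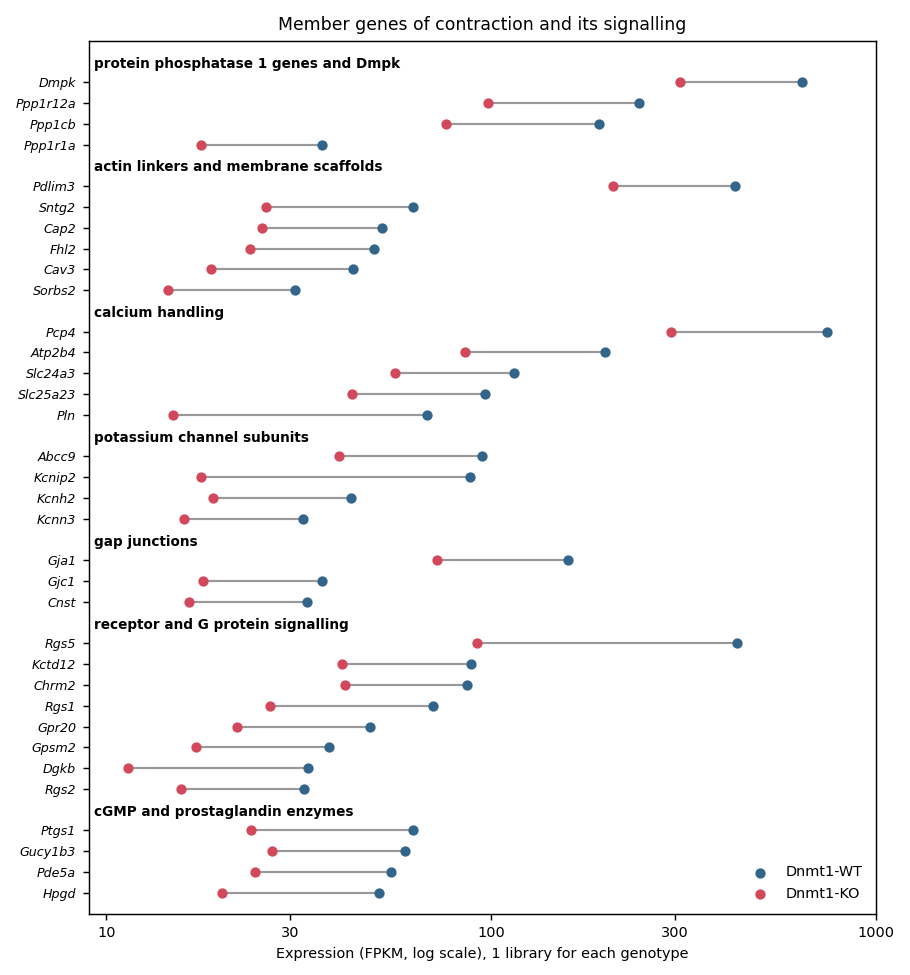
The *Dnmt1*-WT (blue) and *Dnmt1*-KO (red) levels of 34 members of contraction and its signalling are joined by a line for each gene, on a log scale of FPKM with 1 library for each genotype. The longest lines are those of *Kcnip2*, *Rgs5* and *Pln*.

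Other cytoskeletal members linked actin or the cell membrane. *Fhl2*, a LIM protein that binds integrins and SRF, had 49.56 FPKM in *Dnmt1*-WT and 23.7 FPKM in *Dnmt1*-KO, *Cap2*, a cyclase-associated protein that turns over actin filaments, 52.1 and 25.33 FPKM, and *Sorbs2*, an adaptor of actin structures, 30.87 and 14.46 FPKM. *Cav3*, caveolin 3, had 43.89 and 18.69 FPKM, and *Sntg2*, a syntrophin, 62.58 and 26.06 FPKM. The list around *Pdlim3* and *Fhl2* did not move as one. Of the 14 other PDZ-LIM and Z-disc type genes, 0 were at most halved and 9 were higher in *Dnmt1*-KO, among them *Csrp2* with 108.37 and 182.03 FPKM, and the median log2 ratio was 0.46.

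Among members that encode secreted and matrix proteins, the largest loss was that of *Colec10*, a collectin, with 47.08 FPKM in *Dnmt1*-WT and 5.62 FPKM in *Dnmt1*-KO, a level 8.38-fold lower. *Abi3bp*, a matrix protein, had 76.08 and 18.79 FPKM, and the chemokine *Cxcl14* had 79 and 22.8 FPKM. *Tinagl1*, a basement membrane glycoprotein, was more abundant with 210.59 and 85.66 FPKM, and the proteoglycan *Prelp* had 78.54 and 31.31 FPKM. *Kitl*, the ligand of the receptor KIT on interstitial cells of Cajal (ICC), had 43.4 and 19.6 FPKM, while *Kit* was listed at 38.95 and 38.1 FPKM. *Tnfrsf11b*, osteoprotegerin, had 31.02 and 14.97 FPKM, and *Rgma*, a ligand of neogenin and BMP co-receptor, 87.74 and 35.79 FPKM. Fibroblast markers went the other way, with 7 of 8 higher in *Dnmt1*-KO. On the cell surface, the interleukin 13 receptor subunit *Il13ra1* had 36.06 and 9.45 FPKM and *Lrig1*, an inhibitor of receptor tyrosine kinases, 93.53 and 30.96 FPKM. The tetraspanin *Tspan12* had 30.99 and 10.66 FPKM, and *Tspan2* had 62.47 and 25.9 FPKM.

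Regulators of transcription among the members included genes of the gut mesoderm and of the circadian clock. *Hand1*, a basic helix-loop-helix factor on chromosome 11 from 57828705 to 57832818 on the minus strand, had 128.37 FPKM in *Dnmt1*-WT and 43.6 FPKM in *Dnmt1*-KO, a level 2.94-fold lower, and its relative *Hand2* 145.15 and 113.44 FPKM. Of the 14 other mesodermal transcription factors of gut muscle 12 were lower and 2 at most halved, *Foxp2* (20.95 and 8.55 FPKM) and *Foxf2*, which missed the floor of 30 FPKM with 29.22 and 6.46 FPKM. *Hoxc6* had 47.36 and 22.77 FPKM. Its neighbour *Hoxc5*, with which it overlaps on the same strand, had 13.13 and 6.47 FPKM, so reads of the pair may have been divided between them. *Six5* had 36.81 and 15.84 FPKM and lies 773 bases from *Dmpk* on the same strand of chromosome 7, the closest pair of members. *Setd7*, a lysine methyltransferase, had 51.26 and 24.35 FPKM, *Trnp1*, a nuclear protein, 51.26 and 24.06 FPKM, and *Mab21l2* 70.71 and 28.19 FPKM. *Mab21l2* lies within *Lrba*, listed at 12.9 and 5.1 FPKM, on the opposite strand.

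*Tef*, which activates genes through D-boxes, had 53.66 FPKM in *Dnmt1*-WT and 24.13 FPKM in *Dnmt1*-KO, and *Nr1d2*, the repressor REV-ERB beta, 30.72 and 9.68 FPKM. Both are in the list of genes of the circadian clock and its output. Of the 17 other clock genes in the list, 5 were at most halved, 11 were lower, 6 were higher and 1 was at least doubled. Their median log2 ratio was -0.27. The 5 at most halved were *Dbp* (17.02 and 4.7 FPKM), *Hlf* (17.13 and 6.81 FPKM), *Nr1d1* (26.1 and 9.34 FPKM), *Per3* (12.64 and 4.9 FPKM) and *Ciart* (3.03 and 0.79 FPKM). *Per1* was higher in *Dnmt1*-KO, at 26.37 and 44.72 FPKM. *Nfil3*, a repressor that competes for D-boxes, was higher in *Dnmt1*-KO with 3.96 and 15.38 FPKM, and *Arntl*, which encodes the activator BMAL1, had 3.67 and 5.05 FPKM. The sources used here give no time of day of tissue collection, and its part in these values was not tested.

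**Figure D3:**
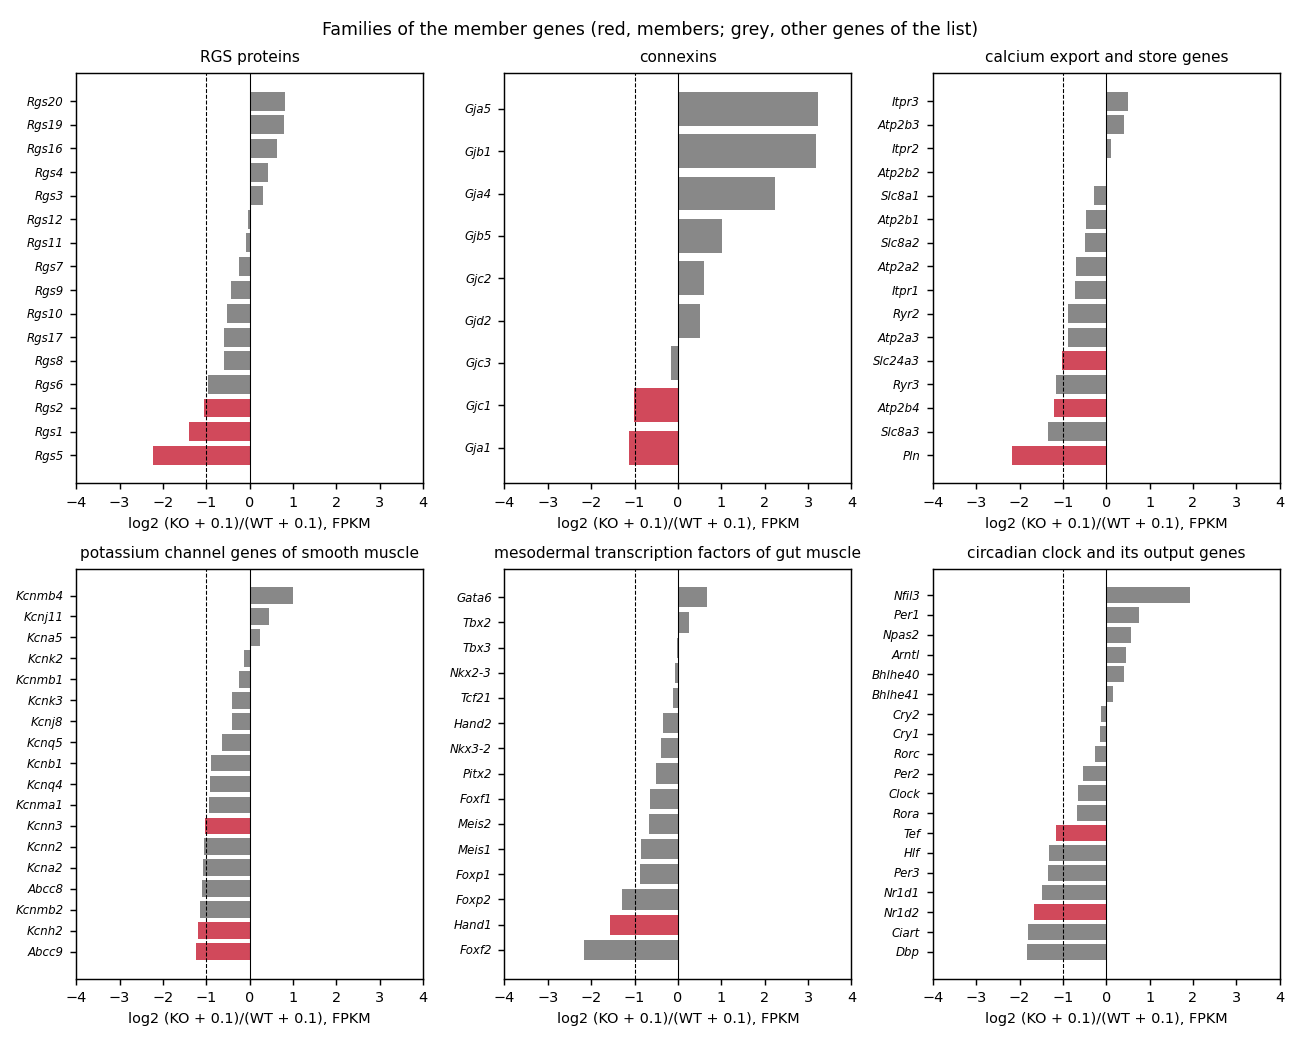
Bars give the log2 ratio of *Dnmt1*-KO to *Dnmt1*-WT, with 0.1 FPKM added, for the genes of 6 lists at 1 FPKM or more in at least 1 library, members in red and other genes in grey, with a dashed line at -1. Among genes in grey, 12 of 15 in the potassium channel list were lower, 4 of them at most halved, and 3 were higher. In the mesodermal factor list 12 of 14 were lower, 2 of them at most halved. In the connexin list 6 of 7 were higher, and in the clock list 11 of 17 were lower and 6 higher.

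The remaining enzymes and regulators varied widely in their loss. *Fbxo32*, atrogin-1, a ubiquitin ligase subunit of muscle wasting, had 42.84 FPKM in *Dnmt1*-WT and 6.94 FPKM in *Dnmt1*-KO, a level 6.17-fold lower. *Maob*, monoamine oxidase B, had 71.15 and 20.02 FPKM, *Wnk2*, a kinase of the WNK family, 30.36 and 11.48 FPKM, and *Rps6ka3*, the kinase RSK2, 31.12 and 12.79 FPKM. *Rims1*, known from the presynaptic active zone of neurons, was listed at 102.34 and 38.77 FPKM. Of the 15 other presynaptic genes listed, *Rims2* (6.07 and 3.01 FPKM) was at most halved and 11 were higher in *Dnmt1*-KO, and none of 12 enteric neuron markers was halved. *Nrep* had 196.02 and 77.98 FPKM, *Ssfa2* 149.55 and 49.3 FPKM, *Arl4d*, a small GTPase, 136.73 and 63.82 FPKM, and *Klhl23* 82.25 and 25.56 FPKM. Genes whose role is less clear or not part of the groups above had ratios from 0.280 to 0.491, namely *Hhatl*, *Lrrc3*, *Fam83d*, *1810011O10Rik*, *Tppp*, *Cped1*, *Pxylp1*, *Adam33*, *Plekha5*, *Tmem47*, *Aaed1*, *Fibin*, *Tmem106b* and *Glo1*. The lowest of these was *Hhatl* with 52.75 and 14.76 FPKM and the highest *Glo1*, glyoxalase 1, with 66.39 and 32.59 FPKM.

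Non-coding RNA made up 4 members. *AA465934*, a long non-coding RNA, had 72.34 FPKM in *Dnmt1*-WT and 5.78 FPKM in *Dnmt1*-KO, the lowest ratio above 0 at 0.0799. *Snhg3*, the host transcript of small nucleolar RNA, had 42.15 and 5.99 FPKM, while *Rcc1*, which it overlaps on the same strand, had 5.12 and 7.2 FPKM. *Malat1*, a nuclear RNA, had 135.45 and 66.81 FPKM, in contrast to *Neat1*, with 32.21 and 57.63 FPKM, and *Meg3*, with 204 and 278.97 FPKM, and 0 of the 12 other genes of the list of long nuclear non-coding RNAs, which does not hold *AA465934* or *Snhg3*, were at most halved. *Rn45s*, the ribosomal RNA precursor, had 2166.37 and 1038.82 FPKM, and *Lars2*, mitochondrial leucyl-tRNA synthetase, 220.62 and 93.34 FPKM. Without these 2 genes, an alternative chosen after seeing the data, 86 members remained. Uncertain was *Hbb-b1*, listed at 46.41 and 0 FPKM, since its close relatives *Hbb-bs* (75.01 and 304.43 FPKM) and *Hbb-bt* (7.53 and 29.69 FPKM) were higher in *Dnmt1*-KO and reads may be assigned to one copy or another. *Mettl7a1* had 47.5 and 20.08 FPKM, and its paralogues *Mettl7a2* and *Mettl7a3* were listed at 0 in both libraries and at 0.3 and 0.16 FPKM.

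Markers show the tissue to be muscle in both libraries. The 11 smooth muscle markers summed to 19849 FPKM in *Dnmt1*-WT and 13527 FPKM in *Dnmt1*-KO, and all 11 were lower, with ratios from 0.427 to 0.893. The sums include 4 genes that met both conditions of the rule and were left out by name, *Myh11*, *Mylk*, *Smtn* and *Lmod1*. Among these, *Mylk* had 2832.17 and 1254.06 FPKM and *Myh11* 2685.29 and 1255.51 FPKM. The 7 markers that the rule does not name as left out had ratios of 0.563 or more. In bulk tissue, fewer cells of a type and less RNA per cell cannot be told apart. Markers of most other cell types were higher in *Dnmt1*-KO, and none of the enteric neuron, macrophage or endothelial list was at 0. Summed markers of macrophages were 148.02 and 513.25 FPKM, of endothelium 66.84 and 183.64 FPKM, of adipocytes 110.62 and 1207.92 FPKM, and of enteric neurons 753.43 and 938.48 FPKM. Markers of the mucosa, from which the muscle was peeled, were also higher in *Dnmt1*-KO, with enterocyte sums of 476.68 and 1035.98 FPKM and Paneth cell sums of 15.38 and 153.89 FPKM. Pancreatic acinar markers, at 51.17 and 3.6 FPKM, were lower, with *Cela2a*, *Prss2*, *Pnlip*, *Cpa1*, *Try4* and *Try5* at 0 in *Dnmt1*-KO. *Rgs5* and *Abcc9* are also on the list of vascular mural cells, which had no marker at 0. Its sum was 782.13 and 426.58 FPKM with these members, whose loss the rule fixed, and 252.49 and 294.37 FPKM over the 10 other markers, so that its direction turned without them. Of the 10, 6 were higher in *Dnmt1*-KO, *Pdgfrb* with 8.54 and 14.47 FPKM and *Notch3* with 2.75 and 10.77 FPKM among them. *Gja1* is on the list of ICC, whose 5 other markers were lower in 4 cases and summed to 177.6 and 151.22 FPKM, with *Ano1* at 45 and 36.41 FPKM. *Kcnn3* is on that of PDGFRA cells, whose 3 other markers were lower in 2 cases and summed to 90.68 and 58.95 FPKM, with *Pdgfra* at 68.95 and 40.72 FPKM. The part of these cells in the members' values was not tested.

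Members had longer transcripts, at the median, than abundant genes as a whole. The longest annotated transcript had a median of 3664 bases for the 86 members with a GENCODE entry. It was 2626 bases for genes at 30 FPKM or more in *Dnmt1*-WT and 1672 bases for the abundant genes at least doubled in *Dnmt1*-KO. For all 17950 listed genes with a length, abundant or not, the median was 3113 bases. Length moved with the ratio over all abundant genes. In the shortest of 10 bins, from 109 to 953 bases, the median ratio was 1.23 and 2.43% of genes were at most halved, and in the longest bin, from 5895 to 23495 bases, these values were 0.798 and 8.91%. When each ratio was centred on the median of its length bin, 66 of the 86 members with a transcript length stayed at or below 0.5. *Rn45s* and *Hbb-b1* have no length and were not centred. The 20 that passed it had centred ratios up to 0.587, and included *Atp2b4*, *Slc24a3*, *Chrm2*, *Abcc9*, *Kcnn3*, *Pde5a*, *Kitl*, *Cnst*, *Pdlim3*, *Cap2*, *Sorbs2*, *Bche*, *Setd7*, *Glo1* and *Malat1*. What part transcript length or RNA quality has in the losses was not tested further.

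**Figure D4:**
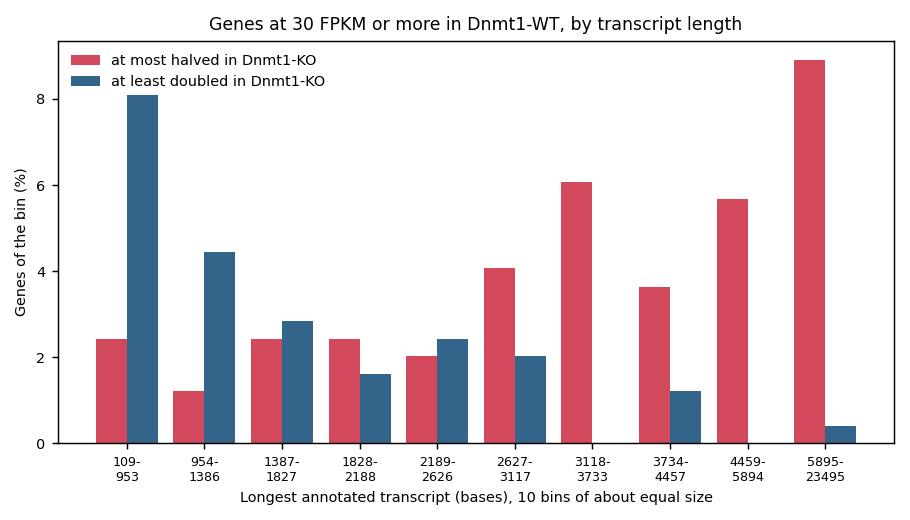
Genes at 30 FPKM or more in *Dnmt1*-WT were divided into 10 bins of their longest annotated transcript (x axis, bases), and bars give the percentage of each bin at most halved (red) or at least doubled (blue) in *Dnmt1*-KO. Halved genes make up 2.43% of the shortest bin and 8.91% of the longest, and doubled genes 8.1% and 0.405%.

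The number of transcript variants that the table lists was lower in *Dnmt1*-KO for 17 of 88 members, the same for 65 and higher for 6. For all genes at 30 FPKM or more in *Dnmt1*-WT it was lower for 8.36% and higher for 7.19%. Among genes with more than 1 variant in *Dnmt1*-WT, 16 of 58 members, or 27.6%, and 13.4% of 1520 genes had fewer. *Abcc9* went from 5 to 3 variants, *Pln*, *Rgs5*, *Cap2* and *Tppp* from 2 to 1, and *Gja1*, *Tspan2* and *Nr1d2* from 3 to 2. The 6 members with more were *Tinagl1* and *Gpr20*, from 2 to 3, *Atp2b4* and *Adam33*, from 4 to 5, *Rims1*, from 6 to 7, and *Mettl7a1*, from 1 to 2. These numbers come from the same 2 libraries as the rule, and the study's account gives fewer mapped reads for *Dnmt1*-KO, whose part in them was not tested.

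Promoters were examined because the CArG box, the site bound by SRF, stands before many contractile genes, and because DNMT1 acts on CpG. RefSeq promoters of GRCm38.p6, from 250 bases before to 50 bases after each transcript start, were given for 68 members. The ratio of observed to expected CpG had a median of 0.609 for members, 0.778 for the 1973 genes at 30 FPKM or more in *Dnmt1*-WT, 0.683 for all listed genes with a promoter, 0.389 for all 27025 genes of the promoter table and 0.423 for 115 abundant genes at least doubled in *Dnmt1*-KO. A CArG box was found for 3 members, or 4.41%, compared with 2.43% of the genes at 30 FPKM or more and 1.81% of all 27025 genes with a promoter. CATTCC, the core of the MCAT motif of muscle genes, searched on both strands, was found for 17 members, or 25%, and for 15.8% and 16.6% of the same comparison sets. CACGTG, the E-box bound by clock proteins among others, was found for 4 members, or 5.88%, and for 11.3% and 8.09%. TATAAA on either strand was found for 9 members, or 13.2%, and for 10.3% and 15.7%. The letters of TATAAA can lie inside a CArG box and those of CATTCC can run into one, a match describes letters and not a binding site, and methylation was not analysed here.

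Promoters of the 3 genes with a CArG box are printed, with the box in capitals, since they show the motif in genes described above. The RefSeq table gives 2 promoters for *Fhl2*, each with a box, that of *Fhl2*-a at chr1:43163912-43164211, minus strand and that of *Fhl2*-b at chr1:43196712-43197011, minus strand. The boxes begin at -31 and -96 relative to the respective start. *Slc25a23*, at chr17:57059814-57060113, minus strand, has its box at -184, which is the same box as that at -205 of an overlapping second promoter, chr17:57059793-57060092 on the minus strand, not printed, and *Trnp1*, at chr4:133498501-133498800, minus strand, at -180.
Fhl2-a: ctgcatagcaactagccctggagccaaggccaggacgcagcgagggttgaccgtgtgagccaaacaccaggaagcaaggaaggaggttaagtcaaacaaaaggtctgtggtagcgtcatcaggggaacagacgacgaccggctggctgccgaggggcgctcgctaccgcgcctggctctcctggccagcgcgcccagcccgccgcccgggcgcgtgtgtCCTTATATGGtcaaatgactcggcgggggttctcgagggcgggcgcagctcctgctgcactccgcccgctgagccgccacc
Fhl2-b: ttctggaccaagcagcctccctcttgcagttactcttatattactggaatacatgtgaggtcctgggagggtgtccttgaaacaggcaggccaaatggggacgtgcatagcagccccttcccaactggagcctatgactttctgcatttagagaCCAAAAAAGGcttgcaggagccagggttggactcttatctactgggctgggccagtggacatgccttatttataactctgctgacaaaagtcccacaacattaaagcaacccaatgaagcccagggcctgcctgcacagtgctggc
Slc25a23: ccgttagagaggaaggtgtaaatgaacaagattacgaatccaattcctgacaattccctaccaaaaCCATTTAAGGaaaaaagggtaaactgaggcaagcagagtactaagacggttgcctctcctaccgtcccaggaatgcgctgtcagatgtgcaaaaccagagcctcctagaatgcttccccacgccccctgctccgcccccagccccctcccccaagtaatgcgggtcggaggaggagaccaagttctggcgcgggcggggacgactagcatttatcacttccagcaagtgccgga
Trnp1: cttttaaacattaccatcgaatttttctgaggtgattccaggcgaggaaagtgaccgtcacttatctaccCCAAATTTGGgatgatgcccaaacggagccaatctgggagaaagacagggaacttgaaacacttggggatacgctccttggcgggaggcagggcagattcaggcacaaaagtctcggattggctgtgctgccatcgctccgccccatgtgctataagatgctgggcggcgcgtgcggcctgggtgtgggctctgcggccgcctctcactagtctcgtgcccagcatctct

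For CACGTG and CATTCC, 1 example each is given for a gene whose level is described above. *Tef*, the clock output gene, has CACGTG in capitals at -127 of the promoter at chr15:81802423-81802722, plus strand, and a second promoter, chr15:81811164-81811463 on the same strand, not printed, holds it at -138. *Abcc9*, the channel subunit, has the reverse complement of CATTCC in capitals at -219 of the promoter at chr6:142702225-142702524, minus strand.
Tef: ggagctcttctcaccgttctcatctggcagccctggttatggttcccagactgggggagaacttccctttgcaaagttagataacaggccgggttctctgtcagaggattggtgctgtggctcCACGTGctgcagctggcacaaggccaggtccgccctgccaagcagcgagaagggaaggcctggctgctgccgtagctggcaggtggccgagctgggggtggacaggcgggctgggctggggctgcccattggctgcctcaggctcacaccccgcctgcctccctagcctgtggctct
Abcc9: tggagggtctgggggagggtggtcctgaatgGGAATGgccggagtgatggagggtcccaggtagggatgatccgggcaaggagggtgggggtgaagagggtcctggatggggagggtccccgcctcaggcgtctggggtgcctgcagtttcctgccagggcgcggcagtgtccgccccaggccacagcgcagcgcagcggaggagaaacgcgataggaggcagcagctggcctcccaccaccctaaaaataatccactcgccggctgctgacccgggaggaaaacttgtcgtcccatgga

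**Figure D5:**
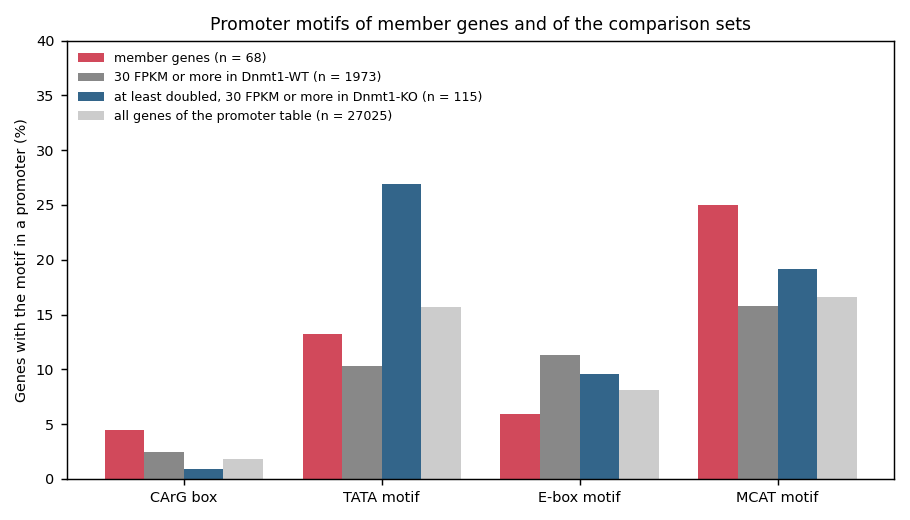
Bars give the percentage of genes with each of 4 motifs in a promoter, for 68 members (red), 1973 genes at 30 FPKM or more in *Dnmt1*-WT (dark grey), 115 abundant genes at least doubled in *Dnmt1*-KO (blue) and all 27025 genes of the promoter table (light grey). The CArG box was found for 3 members, and the TATA motif for 27% of the doubled genes.

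Members lay on every autosome and on chromosome X. With *Dmpk* and *Six5* set aside, neighbouring members within 200000 bases were *Sorbs2* and *Pdlim3*, 57555 bases apart, *Atp2b4* and *Prelp*, 109263 bases apart, *Tnfrsf11b* and *Colec10*, 132290 bases apart, and *Tspan12* and *Cped1*, 133401 bases apart. The annotation holds 84 members as protein coding and 3 as long non-coding RNA. *Pln* lies within *Cep85l*, listed at 5.39 and 2.46 FPKM, on the opposite strand, and no source used here states whether the counting took account of strand.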

How the data were processed

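The data were the mRNA-seq values of *Dnmt1*-WT and *Dnmt1*-KO jejunal tunica muscularis, 1 library for each genotype. The authors prepared TruSeq RNA libraries, mapped the reads to GRCm38/mm10 and deposited expression per gene in FPKM, and the submitters' processing notes name TopHat 1.4.1 and Cufflinks 2.0.2. The deposited table also holds a count of transcript variants per gene and library; its column of fold values between genotypes, computed by the authors, was not used. The number of reads behind each gene is not known, which leaves no interval or count model, and FPKM were not rescaled. Ratios were plain ratios of FPKM. Lists were summarised over genes at 1 FPKM or more in at least 1 library by counts and by the median log2 ratio with 0.1 FPKM added.

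The members and lists were chosen with earlier results of these data known, and the grouping of members by role was made after their values were seen. All members could be named. The text gives full values for the 15 most abundant, the 10 with the lowest ratio, those in a list or gene family and the 4 nearest the limit. *Dnmt1*, the genes nearest outside the limit and list genes are named from outside the members, and further values of members of the same roles, paralogues, partners, overlapping genes and *Ache*, *Ptgs2*, *Ptgis* and *Kit* were added after their values were seen. Symbols were matched to RefSeq GRCm38.p6, 87 of 88 members and 4 of them through a synonym, and transcript lengths came from GENCODE M21, present for 98.8% of listed genes. The last 25 bases of every promoter printed occur in a GENCODE transcript of its gene. Scaling, pseudocount, floor, size of the loss and length centring were varied. Counts and marker sums without member genes were added after seeing the data. Counting was tested on simulated data. Python 3.11.15, numpy 2.4.6, pandas 2.3.3, scipy 1.17.1 and matplotlib 3.10.9 were used.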

Additional observations from a re-analysis of the deposited data

How the results depend on the processing

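The number of members depended on where the limits were placed. It was 88 as reported, 201 with a *Dnmt1*-WT floor of 10 FPKM, 19 with a floor of 100 FPKM, 18 with *Dnmt1*-KO at least 3-fold lower and 172 at most 0.6 times *Dnmt1*-WT. Scaling by the median, the upper quartile or a trimmed mean left 81 members, without *Cnst*, *Gjc1*, *Glo1*, *Ipo13*, *Kcnn3*, *Malat1* and *Sort1*, a pseudocount of 1 FPKM left 82, and scaling by the FPKM sum gave 118 genes, the 88 and 30 more. Length centring gave 75 genes, 68 of them members, among which 2 without a transcript length were not centred. With the symbols left out by the rule kept in, an alternative chosen after seeing the data, there were 98. The median ratio of the members was 0.423 as reported, 0.432 with median scaling, 0.433 with the upper quartile, 0.395 with the FPKM sum, 0.432 with a trimmed mean, and 0.424 and 0.432 with 0.1 and 1 FPKM added. Abundant genes at least doubled in *Dnmt1*-KO, counted with the same exclusions, numbered 171 and between 144 and 184 under every scaling and pseudocount tried, and so outnumbered the members in each. The CArG box was found in 0% of member promoters at 100 FPKM or more, which number 15, and in 4.05% when the genes left out by name were included. No paired analysis was possible because each genotype has 1 library. Depth per gene is unknown, and the cause of these shifts was not tested.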
